A study of Mus musculus with 6 samples.

Results

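The genes described here encode subunits of a pair of ATP-dependent chromatin remodelling families, NURF with its ISWI motor proteins (Bptf, Smarca1 and Smarca5) and BAF (Smarca4, Smarcc1, Smarcb1, Smarcd1, Smarce1, Arid1a and Brd9). They were chosen by name, as 3 NURF and ISWI genes and 7 BAF genes, out of 55401 genes listed in each expression table. Expression was measured by poly(A) RNA-seq in 46C, a mouse embryonic stem cell (mESC) line grown in serum with LIF and inhibitors of GSK3 and MEK. The 3 groups had 2 libraries each, titled as control, biotin-Rbbp4 overexpression (Rbbp4 OE) and biotin-Rbbp7 overexpression (Rbbp7 OE). The control was taken to be the line with the biotin tag alone, though its titles name only 46C control cells. In the study's methods, lines with the tag alone, biotin-Rbbp4 or biotin-Rbbp7 carried the BirA biotin ligase. Their constructs were delivered with lentivirus under puromycin selection. The titles do not say whether the control libraries came from cells treated in this way. In the overexpressing lines the RNA of the inserted cDNA and of the endogenous gene are counted together. Values are in TPM (a share of all transcripts after division by their length, scaled to a fixed total). TPM keeps no sequencing depth, so depth is unknown and no counting interval is given.

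Remodelling complexes use ATP to slide, space or evict nucleosomes. NURF is built around BPTF, a large protein that reads histone H3 methylated at lysine 4, together with an ISWI ATPase and the histone-binding proteins RBBP4 and RBBP7. BAF, the mammalian SWI/SNF complex, contains no RBBP4 or RBBP7. It opens enhancers and promoters, and the form found in mESCs is needed for self-renewal and pluripotency. Its variants share a core and differ in a few subunits: canonical BAF holds ARID1A or ARID1B, PBAF holds PBRM1, ARID2, BRD7 and PHF10, and non-canonical BAF holds BRD9 with BICRA or BICRAL. The comparison of NURF with BAF genes thus sets subunit genes of a complex that contains RBBP4 and RBBP7 beside those of a complex that does not.

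The libraries had between 19011 and 19691 genes above 0 TPM. All 8 markers of embryonic stem cells were at 76.8 TPM or more in every library, and their sum was 7620 to 7880 TPM in control and 8260 to 8570 TPM in the overexpressing libraries. The sum of 2C-like markers was 1.57 to 2.23 TPM in control, 0.42 to 0.75 TPM in Rbbp4 OE and 0.76 to 0.78 TPM in Rbbp7 OE, with none of 5 at 1 TPM or more in every library and Tcstv1 at 0 throughout. Fibroblast markers summed to 4.48 and 5.59 TPM in control and to 8.75 to 22.3 TPM in the overexpressing libraries, with 1 of 6 at 1 TPM or more in every library and Postn at 0 throughout. Primitive endoderm markers summed to 0.62 to 0.74 TPM in control and 0.98 to 2.3 TPM in the overexpressing libraries, with none of 5 at 1 TPM or more in every library. Trophoblast markers, mostly Tfap2c, summed to 34.0 to 37.3 TPM in control and 42.9 to 46.6 TPM in the overexpressing libraries, with 3 of 5 at 1 TPM or more in every library. For each of these lists the control libraries did not overlap the others. The part of these markers in the results below was not tested, and in bulk samples fewer cells of a type and less RNA per cell cannot be told apart. Mitochondrial genes took 8.97% and 9.78% of the total in control and 9.89% to 11.2% in the other libraries. The overexpressed genes fitted their labels, with Rbbp4 at 270 and 271 TPM in Rbbp4 OE against 143 to 147 TPM elsewhere, and Rbbp7 at 725 and 748 TPM in Rbbp7 OE against 208 to 239 TPM elsewhere.

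All 10 genes had a mean of at least 0.5 TPM and were tested among 14156 genes with limma on log2(TPM + 1). A gene is said to have moved at an adjusted p under 0.05 with no minimum fold, and to be called at an adjusted p under 0.01 with a fold over 2. Of the 10 genes, 9 lay in the upper part of the range, from Brd9 at the 63.1 percentile of mean TPM among tested genes to Smarcb1 at the 91.1 percentile. The exception was Smarca1, at the 6.9 percentile.

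**Figure D1:**
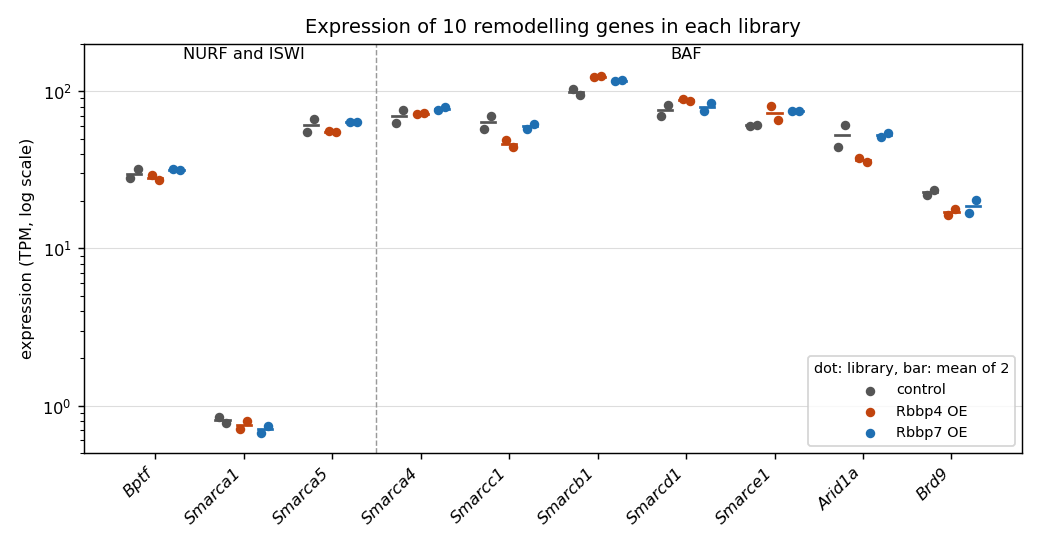
Expression in TPM (log axis) of the 3 NURF and ISWI genes and the 7 BAF genes, with a dot for each of the 6 libraries and a bar for the mean of the 2 libraries of a group. Smarcb1 is the most abundant in every group, and Smarca1 lies under 1 TPM in all 6 libraries.

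Smarcb1 and Smarcd1 ranked highest, and Arid1a, Bptf, Brd9 and Smarca1 lowest, in all 3 groups, while the order of the others differed. Smarcb1, a subunit that contacts the nucleosome acidic patch, was at 99.1 TPM ± 6.5 (SD, n = 2) in control. It lay above Smarcd1 in both control libraries. Smarcd1, an adaptor for transcription factors, was at 75.5 TPM ± 8.2 (SD, n = 2). It was followed by Smarca4 at 69.2, Smarcc1 at 63.7, Smarca5 at 61.1, Smarce1 at 60.8 and Arid1a at 52.7 TPM, means whose neighbours in this order overlapped between libraries. Bptf, at 29.9 TPM ± 2.9 (SD, n = 2), and Brd9, at 22.7 TPM ± 1.4 (SD, n = 2), stood lower without overlap. Smarca1 came last at 0.81 TPM ± 0.05 (SD, n = 2). In Rbbp4 OE the genes between Smarcd1 and Arid1a were, by their means, Smarce1 at 72.9, Smarca4 at 72.2, Smarca5 at 55.3 and Smarcc1 at 46.5 TPM, and of all neighbours in that group only Smarce1 and Smarca4 overlapped. In Rbbp7 OE they were Smarca4 at 77.6, Smarce1 at 75.2, Smarca5 at 63.9 and Smarcc1 at 59.7 TPM, and only the neighbours Smarcd1 and Smarca4 overlapped.

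The NURF and ISWI genes were taken first, since RBBP4 and RBBP7 belong to this complex. None of the 3 moved in either overexpressing line with limma, at adjusted p from 0.4 to 0.921. Of all tested genes, 11.4% moved with Rbbp4 overexpressed and 0.487% with Rbbp7 overexpressed, each against control. None of the 3 had an unadjusted p under 0.05 in any comparison. That level was reached by 29.6% of all tested genes for Rbbp4 OE against control and by 15.4% for Rbbp7 OE against control. For the direct comparison of the lines the share was 19%. With only 3 genes, a count of 0 cannot tell this set from the background.

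Bptf (ENSMUSG00000040481.17, GRCm38 chromosome 11, 107033081 to 107132127, minus strand) had 27.9 and 32.0 TPM in the control libraries, 29.4 and 27.1 with Rbbp4 OE and 32.2 and 31.4 with Rbbp7 OE. The libraries of each line overlapped those of control. Log2 fold changes were -0.08 in Rbbp4 OE (SE 0.097, 95% interval -0.32 to 0.16) and 0.09 in Rbbp7 OE (SE 0.097, 95% interval -0.15 to 0.32). The sign in Rbbp4 OE turned under median-of-ratios scaling, at 0.02.

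Smarca5 (chromosome 8, 80698507 to 80739497, minus strand) encodes the ISWI ATPase that works in ACF, WICH and RSF as well as with BPTF. It had 55.5 and 66.8 TPM in the control libraries, 56.0 and 54.7 with Rbbp4 OE and 64.0 and 63.8 with Rbbp7 OE. The control libraries spanned most of the other values. Log2 fold changes were -0.14 in Rbbp4 OE (SE 0.097, 95% interval -0.37 to 0.10) and 0.07 in Rbbp7 OE (SE 0.097, 95% interval -0.17 to 0.30). Reads of Smarca5 may be shared with 6 processed pseudogenes of at least 95% identity over at least 500 bases. The 6 copies summed to 9.7 and 11.1 TPM in the control libraries, 18.7 and 19.4 with Rbbp4 OE and 15.2 and 14.5 with Rbbp7 OE, without overlap between groups. Smarca5 together with its copies came to 71.6 TPM ± 9.1 for control, to 74.4 TPM ± 0.36 for Rbbp4 OE and to 78.8 TPM ± 0.67 for Rbbp7 OE (SD, n = 2 each). This sum was made after the values were seen and has no test.

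Smarca1 (chromosome X, 47809368 to 47892974, minus strand), the other ISWI ATPase and the usual motor of NURF in neural tissue, was barely expressed. It had 0.84 and 0.77 TPM in the control libraries, 0.71 and 0.80 with Rbbp4 OE and 0.67 and 0.74 with Rbbp7 OE. Smarca5 exceeded it by 66.0 to 95.5 times within a library. Its log2 fold changes of -0.04 in Rbbp4 OE and -0.08 in Rbbp7 OE had wide intervals, from -0.59 to 0.46 over both comparisons, and understate relative change at so low a level.

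Summed over the 3 genes, NURF and ISWI expression was 84.2 and 99.6 TPM in the control libraries, 86.1 and 82.6 with Rbbp4 OE and 96.9 and 95.9 with Rbbp7 OE. Control alone spanned nearly this whole range. For Bptf and Smarca5, the 95% intervals of the 3 comparisons together ran from -0.44 to 0.32 on the log2 scale, which leaves room for changes of moderate size in either direction.

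The BAF genes were compared next. In Rbbp4 OE against control, 1 of the 7 BAF genes moved, which made 1 of all 10 genes, beside 11.4% of all tested genes. At an unadjusted p under 0.05 there were 5, beside 29.6% of all tested genes. None was called at the fold over 2, where the share of all genes was 0.516%. The median log2 fold change of the 10 genes was -0.06, against -0.08 over all tested genes. For the 7 BAF genes it was 0.07, with 4 positive and 3 negative.

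Smarcb1 (ENSMUSG00000000902.13, chromosome 10, 75896769 to 75921617, minus strand) was the gene that moved. It had 104 and 94.5 TPM in the control libraries, 123 and 125 with Rbbp4 OE and 116 and 118 with Rbbp7 OE. Both libraries of each overexpressing line lay above both controls. In Rbbp4 OE the log2 fold change came to 0.32, an increase of 24.9% (SE 0.064, 95% interval 0.17 to 0.48, limma adjusted p = 0.0319). The direction held in each of 16 alternative settings, at 0.26 to 0.48, while the adjusted p ran from 0.0187 to 0.181 and stayed under 0.05 in 8 of them. With 1 library left out, the adjusted p was 0.0281 without control replicate 1 and 0.0748 without control replicate 2. It was 0.156 and 0.181 without Rbbp4 OE replicates 1 and 2, and 0.0881 and 0.0887 without Rbbp7 OE replicates 1 and 2.

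Smarcc1, Arid1a and Brd9 lay lower in Rbbp4 OE than in control in every library, and none of them passed the test. Arid1a (chromosome 4, 133679008 to 133756769, minus strand), the DNA-binding subunit that defines canonical BAF, had 44.5 and 61.0 TPM in the control libraries, 37.6 and 35.3 with Rbbp4 OE and 51.2 and 54.4 with Rbbp7 OE. With Rbbp4 OE the log2 fold change was -0.50 (adjusted p = 0.0785 by limma, SE 0.147). Control replicate 2 was above replicate 1 for 8 of the 10 genes and for 63.9% of all tested genes. Over all tested genes, the median log2 gap between the libraries of a group was 0.178 in control, 0.121 in Rbbp4 OE and 0.123 in Rbbp7 OE. For Arid1a the control libraries differed by 0.448 on the log2 scale, the widest gap of any of the 10 genes between libraries of a group. Without control replicate 1 the value was -0.73 and passed, with a limma adjusted p of 0.027, and without control replicate 2 it was -0.28, with a limma adjusted p of 0.139. Without any of the other 4 libraries it was -0.55 to -0.46, with limma adjusted p of 0.158 to 0.316.

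Smarcc1 (chromosome 9, 110117708 to 110240178, plus strand), a scaffold of the core, had 57.3 and 70.1 TPM in the control libraries, 49.0 and 44.1 with Rbbp4 OE and 57.4 and 62.0 with Rbbp7 OE. In Rbbp4 OE the log2 fold change came to -0.44 (adjusted p = 0.0608 by limma, SE 0.115). It passed without control replicate 1, at -0.58 with a limma adjusted p of 0.0421, and was -0.30 without control replicate 2, with a limma adjusted p of 0.172. Without any of the other 4 libraries it was -0.51 to -0.36, with limma adjusted p of 0.128 to 0.281. Smarcc1 shares part of its locus with Dhx30 on the opposite strand, which had 59.3 and 62.1 TPM in control, 46.9 and 48.6 TPM with Rbbp4 OE and 55.5 and 70.8 TPM with Rbbp7 OE. Whether reads were counted by strand was not given in the sources used here.

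Brd9 (chromosome 13, 73937811 to 73960895, plus strand), the bromodomain subunit of non-canonical BAF, had 21.8 and 23.7 TPM in the control libraries, 16.3 and 17.9 with Rbbp4 OE and 16.8 and 20.5 with Rbbp7 OE. Both lines were below control without overlap. Log2 fold changes were -0.39 in Rbbp4 OE (adjusted p = 0.0923 by limma, SE 0.124) and -0.28 in Rbbp7 OE (adjusted p = 0.355 by limma, SE 0.124).

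Smarcd1 and Smarce1 lay higher in Rbbp4 OE than in control without overlap, also short of the threshold. Smarcd1 (chromosome 15, 99702129 to 99713991, plus strand) had 69.7 and 81.3 TPM in the control libraries, 89.4 and 86.2 with Rbbp4 OE and 75.1 and 83.9 with Rbbp7 OE. With Rbbp4 OE the log2 fold change was 0.22 (adjusted p = 0.194 by limma, SE 0.097). Smarce1 (chromosome 11, 99209047 to 99231017, minus strand), which carries an HMG box that binds DNA, had 60.4 and 61.3 TPM in the control libraries, 80.5 and 65.4 with Rbbp4 OE and 75.2 and 75.3 with Rbbp7 OE. Log2 fold changes were 0.25 in Rbbp4 OE (adjusted p = 0.169 by limma, SE 0.103) and 0.30 in Rbbp7 OE (adjusted p = 0.247 by limma, SE 0.103). The Rbbp4 OE libraries differed from each other for Smarce1 by 0.296 on the log2 scale.

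Smarca4 (chromosome 9, 21616169 to 21704230, plus strand), which encodes the ATPase BRG1, had the smallest log2 fold change of the 7 BAF genes in Rbbp4 OE. It had 62.7 and 75.8 TPM in the control libraries, 72.1 and 72.2 with Rbbp4 OE and 75.5 and 79.8 with Rbbp7 OE. The libraries of both lines overlapped those of control. Log2 fold changes were 0.07 in Rbbp4 OE (SE 0.099, 95% interval -0.18 to 0.31) and 0.17 in Rbbp7 OE (SE 0.099, 95% interval -0.07 to 0.41).

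**Figure D2:**
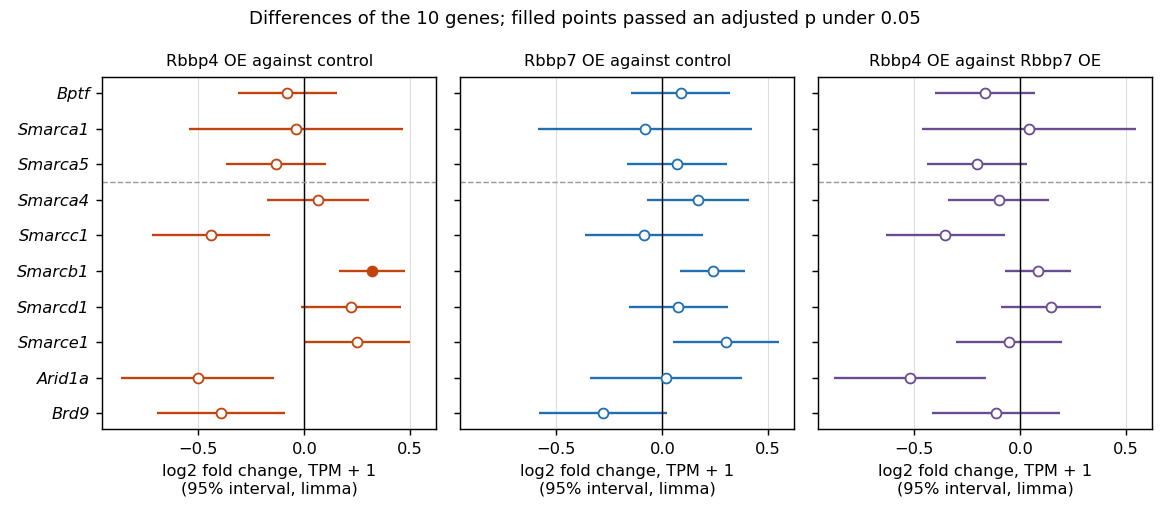
Log2 fold changes of TPM + 1 (x axis) with 95% limma intervals for the 10 genes in the 3 comparisons, NURF and ISWI above the dashed line and BAF below it. Only Smarcb1 in Rbbp4 OE against control has a filled point, and 21 of the 30 intervals include 0.

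Counting the libraries alone, 3 of the 10 genes lay above control in Rbbp4 OE without overlap, 3 lay below and 4 overlapped. Among all tested genes 20.8% lay above and 37.1% below, 57.9% in all, so 6 of 10 was near the background. In Rbbp7 OE, 2 lay above, 2 below and 6 overlapped, where 21.2% of all tested genes lay above and 23.4% below, 44.5% in all.

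In Rbbp7 OE against control, limma gave 0 of the 10 genes as moved, beside 0.487% of all tested genes, and 2 genes, Smarcb1 and Smarce1, had an unadjusted p under 0.05, as did 15.4% of all tested genes. The largest positive values were Smarce1, given above, and Smarcb1, at 0.24 on the log2 scale (adjusted p = 0.19 by limma, SE 0.064). Arid1a and Smarcc1 were at 0.02 (SE 0.147, 95% interval -0.34 to 0.38) and -0.09 (SE 0.115, 95% interval -0.36 to 0.19). The median over the 10 genes was 0.07, against -0.0037 over all tested genes. None was called at the fold over 2, where the share of all genes was 0.0353%.

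Both lines were set against the same control libraries, so the lines were also compared with each other. Limma gave 0 of 10 moved, beside 0.304% of all tested genes, and 2 had an unadjusted p under 0.05, Smarcc1 and Arid1a, as did 19% of all tested genes. In Rbbp4 OE against Rbbp7 OE, Arid1a was at a log2 fold change of -0.52 (SE 0.147, 95% interval -0.88 to -0.16, limma adjusted p = 0.165), and Smarcc1 at -0.35 (SE 0.115, 95% interval -0.63 to -0.07, limma adjusted p = 0.195). Bptf was at -0.17 (95% interval -0.40 to 0.07) and Smarca5 at -0.20 (95% interval -0.44 to 0.03), with both Rbbp4 OE libraries below both Rbbp7 OE libraries for each. In all, 5 of the 10 genes were lower and 2 higher in Rbbp4 OE without overlap, where 38.6% of all tested genes were lower and 16.1% higher, 54.7% in all. The median of the 10 was -0.11, and that of all tested genes was -0.08. None was called at the fold over 2, where the share of all genes was 0.0494%.

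Levels were also set against each other within a library, which does not depend on the scaling between libraries. These are ratios of RNA and not of subunits in a complex. The ratio of Smarcb1 to Smarcc1 was 1.81 and 1.35 in the control libraries, 2.52 and 2.83 with Rbbp4 OE and 2.02 and 1.90 with Rbbp7 OE. The groups did not overlap, and Rbbp4 OE had the highest values. Smarcb1 to Arid1a gave 2.33 and 1.55 in the control libraries, 3.28 and 3.53 with Rbbp4 OE and 2.27 and 2.16 with Rbbp7 OE, so that Rbbp7 OE lay within the control values. By contrast, Smarca5 to Bptf was between 1.90 and 2.09 in all 6 libraries. These pairs were chosen after the values were seen, and with 2 libraries a group they are given without a test.

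For several members the genome holds paralogs that can take the same place in the complex, and their levels were compared per length in TPM. In mESCs the BAF complex is known for SMARCA4 in place of SMARCA2 and for SMARCC1 over SMARCC2. Smarca2 was at 0.36 to 1.7 TPM, and Smarca4 exceeded it by 42.9 to 201 times within a library. Smarcc1 exceeded Smarcc2, at 15.3 to 19.8 TPM, by 2.88 to 3.85 times. The lowest of these ratios, 2.93 and 2.88, were those of Rbbp4 OE. Arid1a exceeded Arid1b by 11.1 and 11.6 times in the control libraries, by 7.31 and 7.98 with Rbbp4 OE and by 9.11 and 8.58 with Rbbp7 OE. The neuronal actin-related subunit Actl6b was listed at 0 in every library, whereas Actl6a, its counterpart in dividing cells, had 131 to 143 TPM.

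**Figure D3:**
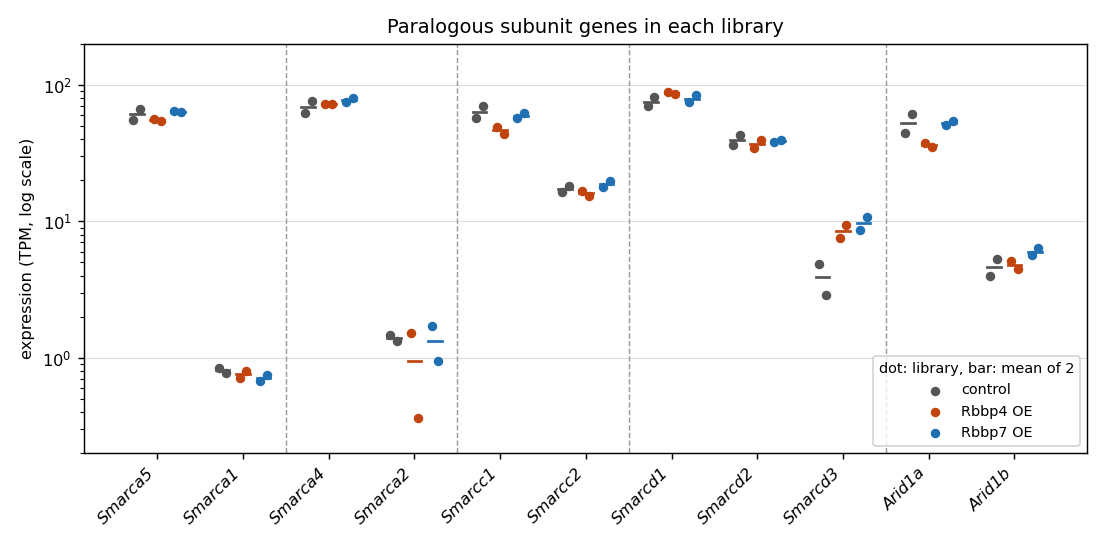
Expression in TPM (log axis) of paralogous subunit genes, with dashed lines between families, a dot for each library and a bar for the mean of the 2 libraries of a group. Smarca5, Smarca4, Smarcc1, Smarcd1 and Arid1a exceed their paralogs in all 6 libraries, and Smarcd3 is higher in all 4 overexpressing libraries than in both controls.

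The remaining subunit genes were examined in a pair of lists, 24 SWI/SNF genes and 12 ISWI and NURF partners, the latter with Rbbp4 and Rbbp7. Of the SWI/SNF list 20 passed the filter on low values. Dpf3, Actl6b, Bcl11a and Bcl11b did not, at 0.94 TPM or less in every library. In Rbbp4 OE against control, 5 of the 20 moved, 2 higher and 3 lower, beside 3.29% of all tested genes higher and 8.07% lower. Higher genes thus made 29.0% of all that moved, a share that was 50.1% under median-of-ratios scaling. Of the 20 list genes, 7 had an unadjusted p under 0.05, beside 29.6% of all tested genes. The median log2 fold change of the 20 was -0.11, with 14 of 20 negative, against -0.08 over all tested genes.

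The 3 lower genes were Brd7, Phf10 and Ss18. Brd7 (chromosome 8, 88331039 to 88362194, minus strand) and Phf10 (chromosome 17, 14945009 to 14961273, minus strand) encode subunits found in PBAF. Brd7 had 48.2 and 54.8 TPM in the control libraries, 33.9 and 32.9 with Rbbp4 OE and 46.7 and 40.1 with Rbbp7 OE. With Rbbp4 OE the log2 fold change was -0.61 (adjusted p = 0.0227 by limma, SE 0.104). Phf10 had 32.0 and 34.4 TPM in the control libraries, 24.9 and 24.5 with Rbbp4 OE and 34.4 and 31.9 with Rbbp7 OE, which gave -0.41 on the log2 scale for Rbbp4 OE (adjusted p = 0.0332 by limma, SE 0.083). Both genes were lower in both Rbbp4 OE libraries than in any other library. The other PBAF genes, Pbrm1 at -0.46 (limma adjusted p = 0.0836) and Arid2 at -0.23 (limma adjusted p = 0.475), did not pass. Phf10 shares part of its locus with 1600012H06Rik on the opposite strand, at 12.4 and 9.68 TPM in control and 7.79 and 6.5 TPM in Rbbp4 OE.

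Ss18, a subunit of canonical and non-canonical BAF, had 61.1 and 72.1 TPM in the control libraries, 44.2 and 43.6 with Rbbp4 OE and 52.3 and 51.8 with Rbbp7 OE, without overlap between the 3 groups. In Rbbp4 OE the log2 fold change came to -0.59 (adjusted p = 0.0182 by limma, SE 0.091). In Rbbp7 OE it was -0.34 (adjusted p = 0.184 by limma, SE 0.091). In Rbbp4 OE against Rbbp7 OE no gene of the SWI/SNF list moved with limma and 5 of 20 had an unadjusted p under 0.05, beside 0.304% and 19% of all tested genes. The median was -0.23, against -0.08 over all tested genes. Brd7 was then at -0.36 (limma adjusted p = 0.169) and Phf10 at -0.41 (limma adjusted p = 0.123).

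In Rbbp7 OE against control, limma likewise gave 0 of 20, beside 0.487% of all tested genes, with 3 at an unadjusted p under 0.05, beside 15.4%. The median was 0.0033, against -0.0037 over all tested genes.

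The 2 higher genes in Rbbp4 OE were Smarcd3 and Actb. Smarcd3, a paralog of Smarcd1 known from heart and muscle, had 4.85 and 2.9 TPM in the control libraries, 7.57 and 9.46 with Rbbp4 OE and 8.68 and 10.8 with Rbbp7 OE. Log2 fold changes were 0.99 in Rbbp4 OE (adjusted p = 0.0486 by limma, SE 0.234) and 1.16 in Rbbp7 OE (adjusted p = 0.118 by limma, SE 0.234). Smarcd3 and Chpf2 overlap on opposite strands, and a search of both strands matched 2061 bases of their transcripts at 99.9% identity. The direction of the match was not recorded. Chpf2 had 4.51 and 3.7 TPM in control and 5.02 to 5.99 TPM in the overexpressing libraries. Whether reads were counted by strand was not given, so the levels of Smarcd3 and Chpf2 are uncertain. Actb, which encodes the actin of both the cytoskeleton and the BAF complex, had 1432 and 1472 TPM in the control libraries, 2236 and 1944 with Rbbp4 OE and 1813 and 1714 with Rbbp7 OE. With Rbbp4 OE the log2 fold change was 0.52 (adjusted p = 0.0137 by limma, SE 0.071).

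The adjusted p of these genes depended on the libraries kept, and for Smarcd3 and Phf10 also on the normalization. With all 6 libraries, the limma adjusted p of Smarcd3 was 0.052 under median-of-ratios scaling and 0.0533 under quantile normalization. That of Phf10 was 0.0498 and 0.0564, while Brd7, Ss18 and Actb passed under both. Brd7, Phf10, Ss18 and Smarcd3 no longer passed when any library but control replicate 1 was left out, at limma adjusted p of 0.0506 to 0.257. Actb did not pass without any of the 6 libraries, at 0.0528 to 0.0879. The log2 fold changes were then -0.70 to -0.52 for Brd7, -0.46 to -0.36 for Phf10, -0.70 to -0.47 for Ss18, 0.69 to 1.28 for Smarcd3 and 0.42 to 0.62 for Actb. Leaving out a Rbbp7 OE library left these values as they were, since it takes no part in them. It lowered the residual degrees of freedom and also changed the standard errors, through the shared estimate of the spread. All 5 kept their direction in each of 16 settings, while the adjusted p stayed under 0.05 in 10 of them for Ss18, 9 for Brd7 and Actb, 6 for Phf10 and 4 for Smarcd3.

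Of the 12 ISWI and NURF partners, all passed the filter. Besides the overexpressed genes themselves, limma gave 1 of 10 as moved in Rbbp4 OE, 0 of 10 in Rbbp7 OE and 0 of 10 between the lines. At an unadjusted p under 0.05 there were 5, 2 and 2. Over all tested genes, the shares that moved were 11.4%, 0.487% and 0.304%. The shares at an unadjusted p under 0.05 were 29.6%, 15.4% and 19%. The gene that moved was Baz1b (chromosome 5, 135187264 to 135246129, plus strand), the partner of SMARCA5 in WICH at replication sites. It had 40.9 and 49.0 TPM in the control libraries, 32.5 and 33.1 with Rbbp4 OE and 39.0 and 38.9 with Rbbp7 OE. In Rbbp4 OE the log2 fold change came to -0.43 (adjusted p = 0.0456 by limma, SE 0.099), and the adjusted p was 0.091 to 0.206 when any library but control replicate 1 was left out. The value was -0.33 under median-of-ratios scaling, where its adjusted p was 0.0522. Hmgxb4 and 0610010K14Rik, genes of NURF accessory proteins, had log2 fold changes of 0.26 (limma adjusted p = 0.154) and 0.23 (limma adjusted p = 0.101) in Rbbp4 OE. Over the 10 partners the median was -0.21 in Rbbp4 OE and -0.02 in Rbbp7 OE.

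**Figure D4:**
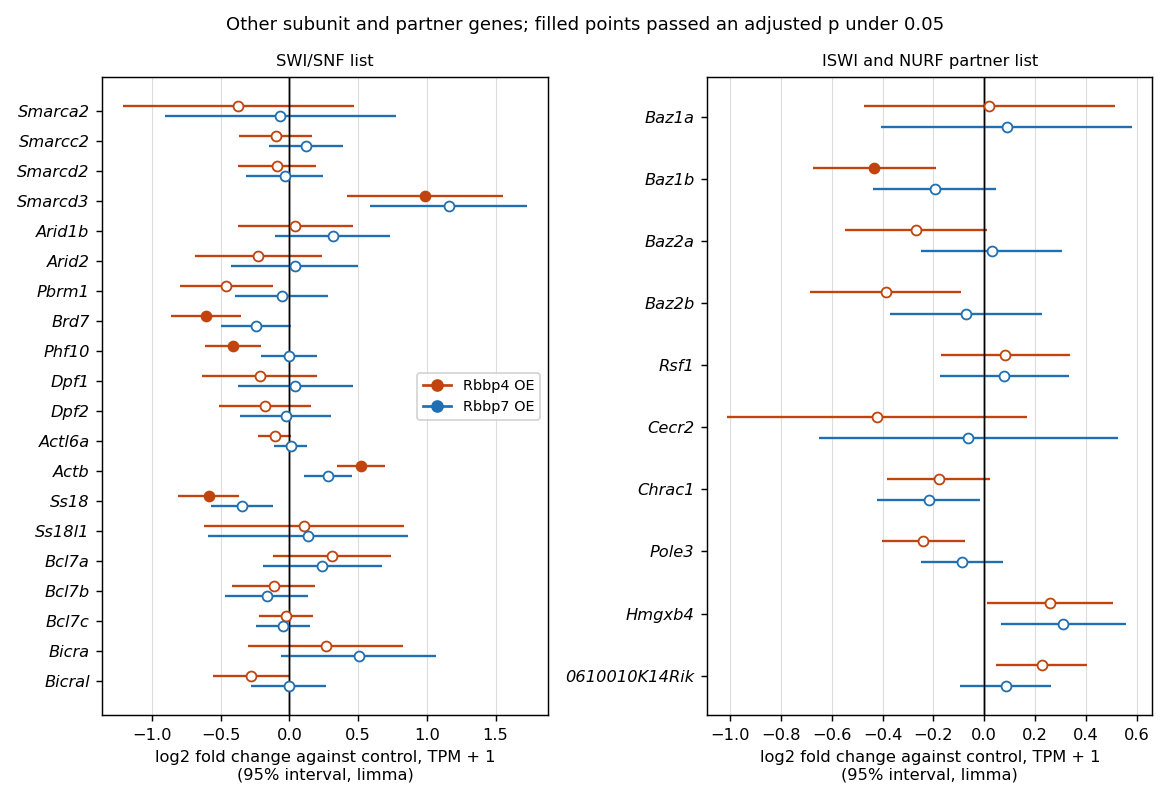
Log2 fold changes against control of TPM + 1 (x axis) with 95% limma intervals for 20 SWI/SNF genes (left) and 10 ISWI and NURF partners (right), in Rbbp4 OE and Rbbp7 OE, which share the control libraries. Filled points stand at Smarcd3, Brd7, Phf10, Actb, Ss18 and Baz1b, all in Rbbp4 OE.

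The profiles of the members were also matched to the tested list genes by the root mean square distance of gene-centred log2(TPM + 1) over the 6 libraries, among 32 candidates. Bptf and Smarca5 both lay nearest to Smarcc2, at 0.0575 and 0.0632. Smarca4 and Smarcd1 lay nearest to Rsf1, at 0.0709 and 0.0747. Smarcb1 and Smarce1 lay nearest to Hmgxb4, at 0.065 and 0.101. Smarcc1, Arid1a and Brd9 lay nearest to Baz1b, Pbrm1 and Baz2b, at 0.0803, 0.0999 and 0.103. Smarca1 lay nearest to Actl6a, at 0.0742, and both varied little on this scale. The distance is small between any genes that vary little, so a small value need not mean a shared pattern. The median distance of each of the 10 genes to all candidates was 0.162 to 0.264.

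The promoter windows of Smarcb1, the member that moved, and of Brd7 and Phf10, the PBAF genes that fell, are shown so that their sequence can be read beside these values. Each runs from 250 bases before to 50 bases after a RefSeq start site on GRCm38.p6, 5′ to 3′ on the minus strand, at chr10:75921565-75921864, chr8:88362123-88362422 and chr17:14961211-14961510. Capitals mark matches on either strand to the 7 motifs named after the sequences.
Smarcb1: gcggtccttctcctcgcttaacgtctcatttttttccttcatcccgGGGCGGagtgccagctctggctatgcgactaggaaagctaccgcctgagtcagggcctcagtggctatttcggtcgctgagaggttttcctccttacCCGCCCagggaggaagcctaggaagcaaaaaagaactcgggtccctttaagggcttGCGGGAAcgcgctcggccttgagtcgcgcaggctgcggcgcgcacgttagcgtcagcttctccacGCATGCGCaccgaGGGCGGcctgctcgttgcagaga
Brd7: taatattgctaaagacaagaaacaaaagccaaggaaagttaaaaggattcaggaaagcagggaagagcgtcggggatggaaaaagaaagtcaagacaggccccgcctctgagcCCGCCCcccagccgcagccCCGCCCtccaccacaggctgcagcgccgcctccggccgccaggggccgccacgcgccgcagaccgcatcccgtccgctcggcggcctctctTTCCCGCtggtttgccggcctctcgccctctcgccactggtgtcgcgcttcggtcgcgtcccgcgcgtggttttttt
Phf10: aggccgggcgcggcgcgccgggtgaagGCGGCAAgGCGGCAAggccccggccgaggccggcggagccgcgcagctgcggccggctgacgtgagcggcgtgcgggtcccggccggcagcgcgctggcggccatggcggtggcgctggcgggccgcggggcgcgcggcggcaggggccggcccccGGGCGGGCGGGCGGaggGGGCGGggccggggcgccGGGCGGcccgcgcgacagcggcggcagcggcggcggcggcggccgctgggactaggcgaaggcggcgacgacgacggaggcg

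The motifs searched were the TATA box, spelled TATAAA, the CCAAT box, spelled as named, the GC box, spelled GGGCGG, the ETS core, spelled CCGGAAG, the NRF1 motif, spelled GCGCATGC, and the YY1 core, spelled AAGATGGC. The last was the E2F core, spelled TTNNCGC, where either N may be cytosine or guanine. Overlapping matches were counted, as occurred for GC boxes in Phf10. Smarcb1 had 3 GC boxes, 1 NRF1 motif and 1 E2F core. Brd7 had 2 GC boxes and 1 E2F core, and Phf10 had 5 GC boxes and 2 E2F cores. A window was found for 9 of the 10 members, Smarce1 being the one without, and Arid1a and Brd9 had 2 windows each. Members were counted by gene, with a match in any of its windows, whereas the shares beside them count windows. All 9 held a GC box, as did 62.2% of 12862 windows of tested genes and 35.7% of all 32851 windows. An NRF1 motif was held by 4 of the 9, those of Smarca4, Smarca5, Smarcb1 and Smarcc1, as by 5.31% of windows of tested genes and 2.71% of all windows. An E2F core was held by 3 of the 9, as by 16.8% of windows of tested genes and 9.57% of all. An ETS core and a YY1 core were held by 2 of the 9 each, as by 17.6% and 4.39% of windows of tested genes and by 8.86% and 2.75% of all. The TATA box was in none of the 9 and in 6.87% of windows of tested genes, and the CCAAT box was in 1 of 9, that of Smarca1, and in 38.5% (13.6% and 37.4% of all windows). A match is a description of letters and shows no binding.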

How the data were processed

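Gene expression was measured by poly(A) RNA-seq in 6 libraries, 2 each of control, Rbbp4 OE and Rbbp7 OE, grouped from the sample titles. The authors trimmed reads with Trim_galore, aligned them to mm10 with STAR and estimated expression with RSEM on a GENCODE annotation, and deposited TPM values, written to 0.01, in 1 table per library. TPM is length-scaled and sums to a fixed total, so depth and its precision are unknown and a rise of abundant genes lowers the others.

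GENCODE M21 (GRCm38, the same assembly as mm10) gave names and coordinates, looked up by identifier with the version removed. Of 55401 genes 55141 matched, and promoter windows were RefSeq's. The study's count model could not be used on TPM. limma-trend (limma 3.58.1, R 4.3.3) was fitted to log2(TPM + 1) for the 14156 genes whose mean TPM reached 0.5, all groups in 1 fit without covariates (3 residual and 3.103 prior degrees of freedom), with Benjamini-Hochberg adjustment over all genes tested. This fold scale understates the change of low genes. Scripts were tested on simulated data.

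The named genes were the 10 members, Rbbp4, Rbbp7, paralogs, list genes that moved and nearest profiles. Members and lists were chosen with earlier results of these data known. The labels do not say that libraries came from separate cultures, so p-values measure the spread between these libraries, which may be technical. Copies were searched with blastn 2.17.0 in GENCODE M21 transcripts. The fit was repeated with quantile normalization or median-of-ratios scaling, with a pseudocount of 0.1 or 5, unfiltered or at a mean TPM of at least 5, on protein-coding genes, with a GC and length correction, with a replicate block, in 2-group fits, and leaving out each library.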

Additional observations from a re-analysis of the deposited data

Results flagged for a closer look

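The direct comparison of the overexpressing lines passed the test for 2 of the genes described, and both are the overexpressed genes. For Rbbp4 the log2 fold change between Rbbp4 OE and Rbbp7 OE was 0.91 (limma adjusted p = 0.00192), and Rbbp7 had -1.79 (limma adjusted p = 8.31e-05). Without Rbbp7 OE replicate 1, the adjusted p for Rbbp4 was 0.0536, at a log2 fold change of 0.92.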

How the results depend on the processing

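In Rbbp4 OE against control, the 1 member that moved became 0 with no filter, with the replicate block and in the 2-group fit. It became 2 among protein-coding genes, with Smarcc1, and 3 at a mean TPM of at least 5, with Smarcc1 and Arid1a. Leaving out 1 library gave 0 to 3 members. In the other 2 comparisons the count was 0 in each of 16 settings.

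Over all genes, the counts at a fold over 2 were 73 in Rbbp4 OE against control, 5 in Rbbp7 OE against control and 7 between the lines. With no filter they were 4, 2 and 4. In Rbbp4 OE the count was 31 with a pseudocount of 5, 4 with the replicate block and 1 in the 2-group fit. In Rbbp7 OE it was 8 at a mean TPM of at least 5 and 0 in the 2-group fit, and between the lines it was 1 among protein-coding genes. Leaving out 1 library gave 0 to 40, 0 in each case, and 0 to 42. The counts of genes that moved were 1609, 69 and 43. They were 709, 9 and 28 with no filter, 900, 9 and 9 with the replicate block, and 158, 1 and 8 in the 2-group fit. For Rbbp7 OE they were 137 at a mean TPM of at least 5 and 36 under median-of-ratios scaling. Leaving out 1 library gave 47 to 1574, 2 to 53, and 8 to 98. Of the genes that moved in Rbbp4 OE 29.0% were higher, but 50.1% under median-of-ratios scaling and 45.2% under quantile normalization, and between the lines 58.1% became 72.4% and 62.9%. With 1 library left out, the share higher was 22.9% to 76.2% in Rbbp4 OE, with 76.2% and 74.5% without Rbbp4 OE replicates 1 and 2, and 17.2% to 93.9% between the lines. At a fold over 2 in Rbbp4 OE, 39.7% became 53.1% under median-of-ratios scaling. Fewer samples or more genes are part of the construction of the left-out, 2-group and unfiltered fits, and elsewhere the cause was not tested.

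Signs turned for values that had not passed the test. In Rbbp4 OE against control, Bptf was at 0.0243 under median-of-ratios scaling, 0.0273 under quantile normalization and 0.0319 with the GC and length correction, and at -0.17 to 0.0143 with 1 library left out. Smarca1 was at 0.0058 under median-of-ratios scaling and 0.13 with the GC and length correction, and Smarca5 at 0.0572 with that correction. With 1 library left out, Smarca4 was at -0.0702 to 0.20. In Rbbp7 OE against control, Arid1a was at -0.0417 with the GC and length correction. With 1 library left out it was at -0.21 to 0.24, Bptf at -0.0085 to 0.18, Smarca5 at -0.0637 to 0.20, Smarcc1 at -0.23 to 0.0573 and Smarcd1 at -0.0342 to 0.19. Between the lines, Smarce1 was at 0.0465 under median-of-ratios scaling and -0.20 to 0.10 with 1 library left out, and Brd9 at 0.0067 under quantile normalization and -0.25 to 0.0223 with 1 library left out.

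Deviations of same-numbered libraries correlated at -0.0308 to 0.0336 across genes, which are not independent. A correlation over all genes from 2 libraries a group cannot decide whether replicate numbers pair the libraries. The titles give only a replicate number. The replicate block cannot alter a fold change in this balanced design. With it Smarcb1 in Rbbp4 OE no longer passed, with a limma adjusted p of 0.0599, and Phf10, Smarcd3 and Baz1b no longer passed, at 0.065, 0.0844 and 0.065. A group left with a single library took its spread from the other groups.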
